A study of Mus musculus with 8 samples.

Results

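The chaperones of the endoplasmic reticulum (ER) and the genes of the unfolded protein response were examined in liver after ovariectomy (OVX), in mice given either a high fat diet (HFD) or HFD to which white button mushroom had been added (HFD+WBM). The set was a list of 39 genes grouped by function, with no threshold on their values, in 6 arms: 15 chaperones and folding enzymes of the ER lumen, 6 genes of ER-associated degradation, 4 genes for the stress sensors and Xbp1, 5 genes of the PERK and ATF4 arm, 7 cytosolic heat shock proteins and the 2 subunits of the mitochondrial chaperonin. A gene counted as measured when a probe set named that gene alone, and the brightest such probe set stood for it, which gave 37 of the 39 genes among 19938 genes in all. Hspa1b, the inducible Hsp70, shares its single probe set with its near-identical neighbour Hspa1a, and Hsp90ab1 was not analysed here. The 39 genes and the wider lists below were chosen with earlier results of these data known.

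All 8 mice were female C57B1/6J mice ovariectomized at 7 weeks of age in both groups, and 4 mice were fed HFD and 4 HFD+WBM for 3 months. The diets began the week after surgery, intake was matched between the groups and the mice were fasted for some hours before sacrifice. Each liver was hybridized to its own Affymetrix Mouse Gene 1.0 ST array, and values are log2 expression as the authors normalized them. Hepatocyte markers were bright on all arrays (Alb, albumin, had a mean of 14.1 on the log2 scale). The medians of the arrays were 7.04 to 7.22 and their pairwise correlations 0.920 to 0.973, with HFD replicate 3 farthest from the others. Without HFD replicate 3 the genes called were those of all mice less Dnajb11 and with Chac1 added. The labels name the mice as separate samples. Bulk liver RNA cannot tell fewer cells of a type from less RNA per cell.

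The ER folds and glycosylates secreted proteins, of which the liver makes large amounts. When unfolded proteins accumulate, 3 sensors in the ER membrane respond: ATF6 is cleaved to a transcription factor, IRE1 splices the mRNA of XBP1, and PERK phosphorylates eIF2 alpha, which lowers general translation and favours the translation of ATF4. ATF6 and XBP1 raise chaperones and degradation factors, and ATF4 raises genes of amino acid metabolism together with Ddit3 and Ppp1r15a. Cytosolic heat shock proteins answer to another factor, HSF1.

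With HFD+WBM, 4 chaperones and folding enzymes of the ER lumen were lower in liver, and Ppp1r15a of the PERK arm was higher. Of the 37 genes, 6 were lower at p under 0.05 before adjustment from limma (Hspa5, Manf, Pdia6, Dnajb11, Derl1 and Eif2ak3), 2 were higher (Ppp1r15a and Herpud1) and 29 did not pass. The same threshold called 6.9% of all 19938 genes lower and 4.85% higher, and of the 9969 genes with the higher means, to which 33 of the 37 belong, it called 8.29% lower and 4.54% higher. The groups did not overlap for 9 of the 37 genes, 8 of them lower with HFD+WBM and 1 higher, against 8.23% of all genes (5.02% lower and 3.21% higher) and 7.58% lower among the 9969 brighter genes. The changes were below 2-fold, from 1.29-fold (Derl1) to 1.82-fold (Manf). After Benjamini-Hochberg adjustment over all genes no gene passed, with adjusted p of 0.37 to 0.42 from limma for the 8 genes. When limma let the prior variance depend on brightness, the adjusted p was 0.030 for Manf, where 0.697% of all genes passed, and 0.059 for Hspa5. Before adjustment 10 of the 37 genes were then lower against 8.24% of all genes, and 2 were higher against 5.36%.

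**Figure D1:**
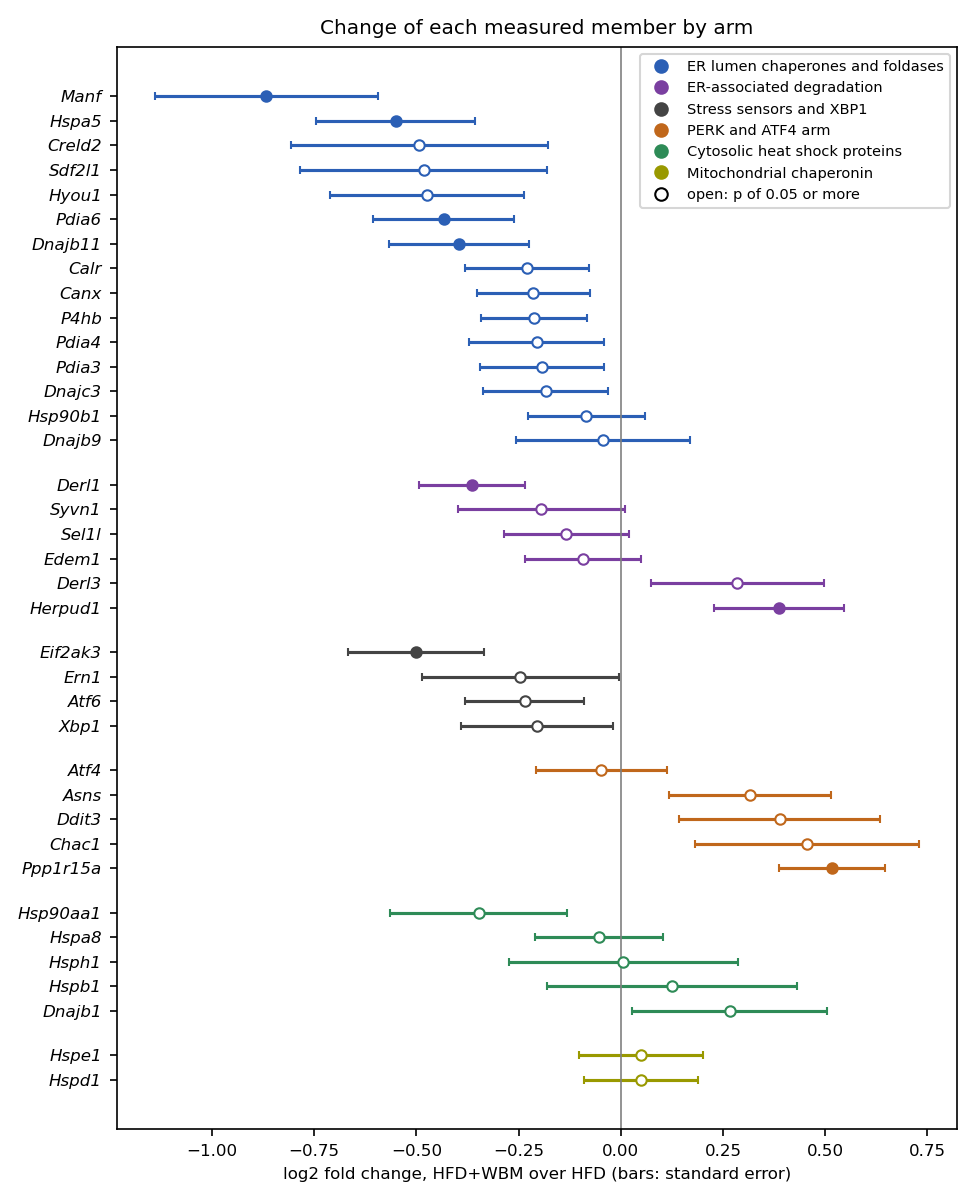
Log2 fold change of each of the 37 measured genes, HFD+WBM over HFD with 4 mice a diet, coloured by arm, with bars for the limma standard error. Filled points passed p under 0.05 without adjustment. All 15 ER lumen genes lie below 0 and 4 of the 5 genes of the PERK and ATF4 arm lie above it.

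The estimates of all 15 genes of the ER lumen were below 0, with a median log2 fold change of -0.23, whereas 49.3% of all genes and 53.6% of the 9969 brighter genes were below 0. Of the 15, 4 passed p under 0.05 and for 6 every HFD+WBM mouse lay below every HFD mouse. Of all genes 6.9% passed as lower and 5.02% were separate in this way. Among the 9969 brighter genes these shares were 8.29% and 7.58%. The mean of the 15 genes was 11.28, 10.61, 10.80 and 10.68 (log2) in HFD replicates 1 to 4, and 10.55, 10.55, 10.35 and 10.57 in HFD+WBM replicates 1 to 4. HFD replicate 1 stood apart in this arm, as the highest HFD mouse in 13 of the 15 genes (22.6% of all genes). HFD+WBM replicate 3 was the lowest HFD+WBM mouse in 12 of the 15 (33% of all genes), and without it the median was -0.20. Without HFD replicate 1, 14 of the 15 estimates were below 0, the median was -0.19, the groups did not overlap for 6 genes, and 2 genes (Hspa5 and Manf) passed. Leaving out HFD+WBM replicate 2, 3 or 4 also left 2 passing, and leaving out HFD replicate 2 left 6. Without HFD+WBM replicate 1, 14 estimates were below 0.

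Hspa5 encodes BiP (GRP78), the Hsp70 of the ER lumen that binds unfolded chains and holds the sensors inactive. It is the classic target of ATF6, through the ER stress element (ERSE), a CCAAT box and a CCACG box 9 bases apart. The 250 bases before the annotated start of Hspa5 (RefSeq, GRCm38.p6, chr2:34771840-34772089, plus strand) are shown with the CCAAT and CCACG of the complete element in capitals, because this gene is the reference marker of the response:
Hspa5: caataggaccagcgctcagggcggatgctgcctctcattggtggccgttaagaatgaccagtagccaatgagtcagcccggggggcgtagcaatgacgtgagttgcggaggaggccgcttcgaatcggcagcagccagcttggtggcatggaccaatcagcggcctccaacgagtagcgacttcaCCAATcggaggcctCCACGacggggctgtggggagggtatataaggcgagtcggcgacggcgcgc

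Hspa5 was 12.48, 11.70, 12.10 and 11.86 (log2) in HFD replicates 1 to 4, and 11.62, 11.29, 11.38 and 11.65 in HFD+WBM replicates 1 to 4. Every HFD+WBM mouse lay below every HFD mouse, the nearest by a small margin (11.65 against 11.70). The log2 fold change was -0.55 (standard error 0.20, 1.47-fold lower) with p = 0.019 from limma and an exact permutation p of 0.029, two-sided, the smallest that 4 mice against 4 can give. The limma p was 0.053 without HFD+WBM replicate 2.

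Manf, a small luminal protein that is secreted in ER stress and binds BiP, was lower by the largest amount among the 37 genes. It was 10.84, 9.48, 9.77 and 9.92 in HFD replicates 1 to 4 and 9.25, 8.90, 9.07 and 9.32 in HFD+WBM replicates 1 to 4. The groups did not overlap, and HFD replicate 1 was the highest. The log2 fold change was -0.87 (standard error 0.27, 1.82-fold lower; p = 0.010 from limma, exact permutation p = 0.029). Without HFD replicate 1 it was -0.59 and still passed.

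Pdia6, a protein disulfide isomerase that also acts on the IRE1 sensor, was 10.96, 10.61, 10.62 and 10.50 in HFD replicates 1 to 4 and 10.36, 10.46, 9.92 and 10.21 in HFD+WBM replicates 1 to 4. The groups were separate and the log2 fold change was -0.43 (standard error 0.17; p = 0.032 from limma, exact permutation p = 0.029). The limma p rose to 0.064 to 0.088 without HFD replicate 1, HFD+WBM replicate 3 or HFD+WBM replicate 4. Dnajb11 (ERdj3), a J-domain partner that hands unfolded chains to BiP, was 9.92, 9.30, 9.52 and 9.39 in HFD replicates 1 to 4 and 9.24, 9.22, 8.95 and 9.14 in HFD+WBM replicates 1 to 4. Here too no mouse of one diet lay within the other, and the log2 fold change was -0.40 (standard error 0.17; p = 0.045 from limma, exact permutation p = 0.029). Dnajb11 was the weakest of these calls and lost it without HFD replicate 1 or 3 or any single HFD+WBM mouse, with limma p of 0.058 to 0.12. It also lost the call with arrays centred on their medians, with quantile normalization and with array weights, with limma p of 0.054 to 0.076.

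In 2 further genes every HFD+WBM mouse lay below every HFD mouse while limma gave p above 0.05. Canx, the membrane-bound lectin chaperone calnexin, was 12.02, 11.95, 11.92 and 12.02 in HFD replicates 1 to 4 and 11.83, 11.86, 11.54 and 11.83 in HFD+WBM replicates 1 to 4. P4hb, the main protein disulfide isomerase, was 12.56, 12.41, 12.57 and 12.46 in HFD replicates 1 to 4 and 12.28, 12.27, 12.21 and 12.39 in HFD+WBM replicates 1 to 4. Both differences were small, at log2 fold changes of -0.21, and the limma p was 0.15 for Canx and 0.13 for P4hb. The exact permutation p was 0.029 for each.

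Of the other 9 genes of the lumen, none passed with all mice. Hyou1, the nucleotide exchange factor of BiP, had a log2 fold change of -0.47 (95% interval -1.01 to 0.06), Creld2, a disulfide isomerase-like protein, one of -0.49 (-1.20 to 0.21) and Sdf2l1, a luminal partner of ERdj3, one of -0.48 (-1.16 to 0.20). These 3 had among the largest estimates of the arm and wide errors, which came with HFD replicate 1: Creld2 was 9.59 in that mouse, against 7.94 to 8.63 in the rest of the group, and Sdf2l1 was 9.26 against 7.84 to 8.21. Without HFD replicate 1 the log2 fold changes were -0.17 for Creld2, -0.19 for Sdf2l1 and -0.26 for Hyou1. Without HFD replicate 2, Creld2 (-0.72) and Hyou1 (-0.63) passed. The lectin chaperone gene Calr (-0.23), the isomerase genes Pdia3 (-0.19) and Pdia4 (-0.21) and Dnajc3 (p58IPK, -0.18) had smaller log2 fold changes. Hsp90b1 (GRP94) at -0.08 and Dnajb9 (ERdj4) at -0.04 had the smallest, with 95% intervals of -0.41 to 0.24 and -0.52 to 0.43.

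**Figure D2:**
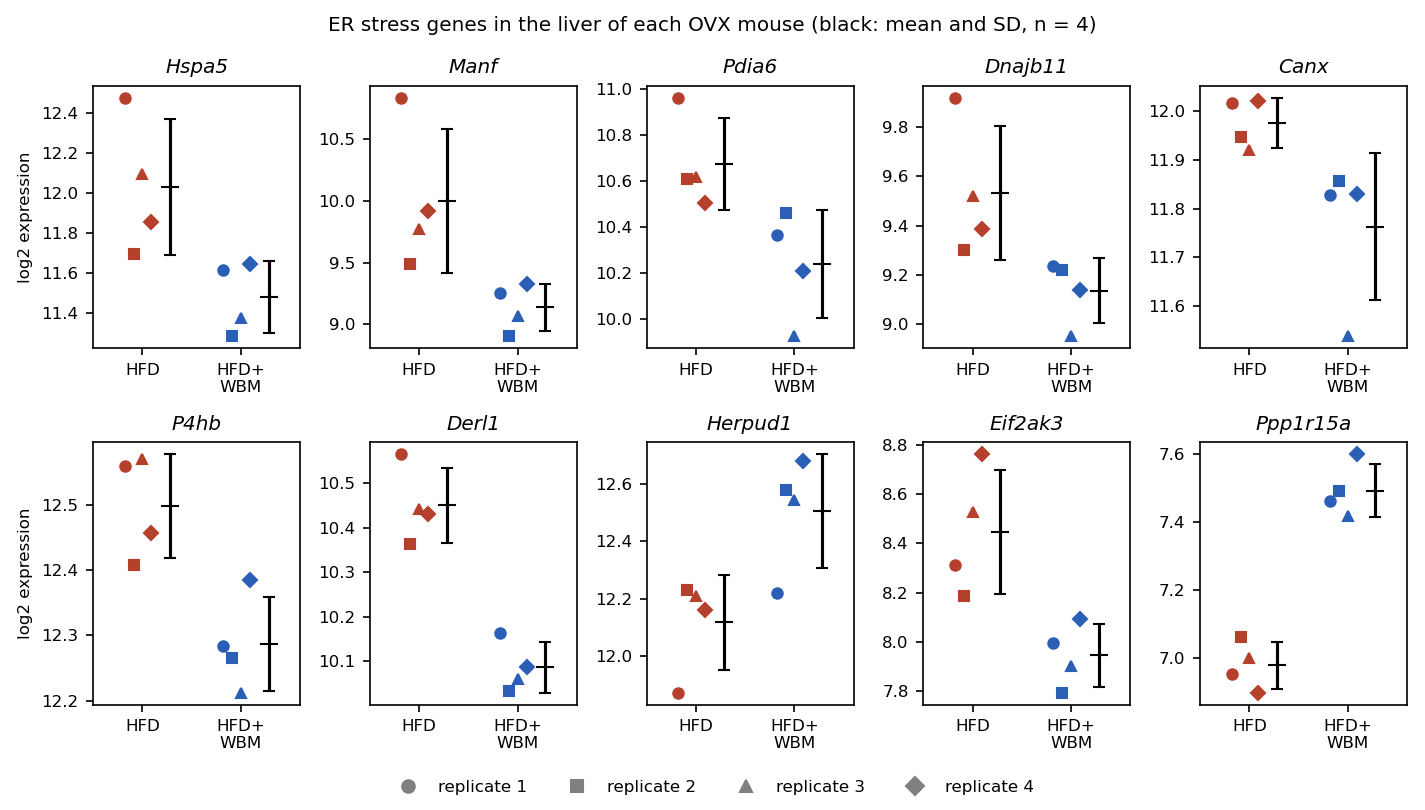
Log2 expression in the liver of each OVX mouse for the 8 genes past p under 0.05 and for Canx and P4hb, red for HFD and blue for HFD+WBM, with a marker shape per replicate number and the mean and SD of 4 mice in black. The diets are separate in every panel but that of Herpud1, where HFD+WBM replicate 1 (12.22) lies just below HFD replicate 2 (12.23).

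The ERSE letters were common in the promoters of the lumen genes. Both strands of the window from 250 bases before to 50 after each annotated start (RefSeq, GRCm38.p6) were searched for CCAAT followed after 9 bases by CCACG. It was in 7 of the 13 lumen genes with a window and in 2 of 5 genes of ER-associated degradation (Syvn1 and Derl3), against 0.137% of 27025 genes. None of the 14 other members with a window held it. The elements of the lumen genes are shown in the direction from CCAAT to CCACG, both in capitals, to let their spacers be compared, and Hsp90b1 has a pair of them.
Hspa5 chr2:34772025-34772043: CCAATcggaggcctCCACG
Hsp90b1 chr10:86705638-86705656: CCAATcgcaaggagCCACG
Hsp90b1 chr10:86705533-86705551: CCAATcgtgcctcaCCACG
Calr chr8:84847075-84847093: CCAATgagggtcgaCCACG
Canx chr11:50325800-50325818: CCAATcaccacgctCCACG
Pdia6 chr12:17266491-17266509: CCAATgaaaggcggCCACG
Dnajc3 chr14:118937827-118937845: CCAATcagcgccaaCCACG
Creld2 chr15:88819520-88819538: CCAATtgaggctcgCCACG

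In these 7 lumen genes the first base of the element lay from 65 (Hspa5) to 212 (Hsp90b1) bases before the start. The element reads the same way as the gene in Hspa5, Canx, Pdia6 and Dnajc3 and the opposite way in Calr and Creld2, and Hsp90b1 has 1 of each. The 7 genes with the letters had a median log2 fold change of -0.23 (range -0.55 to -0.08). The 6 with a window and without them had one of -0.21 (range -0.48 to -0.04). Manf (-0.87) and Hyou1 (-0.47) had no window to search and are in neither set. A shorter relative, ERSE-II (ATTGG, 1 base of any kind and CCACG, both strands), was in Dnajb11 just after its start and in Herpud1 52 bases before its start, against 0.0444% of all genes. The XBP1 site TGACGTGG, on both strands, was in none of the 32 members with a window and in 0.714% of all genes. Outside the 39 genes it was in 4 of 32 other genes of ER folding and translocation and 2 of 16 other genes of ER-associated degradation (12.5% each). A match of letters is not a measured binding site.

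Genes of ER-associated degradation, which returns misfolded proteins to the cytosol for the proteasome, went both ways. Of the 6, Derl1 was lower, Herpud1 was higher and 4 did not pass. Derl1 (derlin-1, a part of the retrotranslocation channel) was 10.56, 10.36, 10.44 and 10.43 in HFD replicates 1 to 4 and 10.16, 10.03, 10.06 and 10.09 in HFD+WBM replicates 1 to 4. Every HFD+WBM mouse lay below every HFD mouse, with a log2 fold change of -0.36 (standard error 0.13; p = 0.019 from limma, exact permutation p = 0.029).

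Herpud1 (HERP, a scaffold of the same complex) was 11.87, 12.23, 12.21 and 12.16 in HFD replicates 1 to 4 and 12.22, 12.58, 12.54 and 12.68 in HFD+WBM replicates 1 to 4. HFD replicate 1 was the lowest mouse, the reverse of its place for the lumen chaperones. The log2 fold change was 0.39 (standard error 0.16; p = 0.037 from limma, exact permutation p = 0.057), and the limma p was 0.060 to 0.098 without HFD replicate 1 or 4 or HFD+WBM replicate 2, 3 or 4. Besides the ERSE-II, the promoter window of Herpud1 holds the letters TTGCATCA, a composite site of ATF4 and C/EBP factors (both strands, 1.03% of all genes). Chac1 was the only other of the 32 members with a window that holds them. The sites, shown because these windows alone hold them, lie 112 (Herpud1) and 193 (Chac1) bases before the start.
Herpud1 chr8:94386317-94386324: TTGCATCA
Chac1 chr2:119351049-119351056: TTGCATCA

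The ubiquitin ligase gene Syvn1 (HRD1) had a log2 fold change of -0.19, its partner Sel1l one of -0.13, the lectin Edem1 one of -0.09 and the derlin Derl3 one of 0.29. All 4 of their 95% intervals included 0, and the widest ran from -0.19 to 0.76 (Derl3).

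Among the sensors, Eif2ak3 was lower and the other 3 genes did not pass. Eif2ak3 encodes PERK, the eIF2 alpha kinase. It was 8.31, 8.19, 8.53 and 8.76 in HFD replicates 1 to 4 and 7.995, 7.79, 7.90 and 8.09 in HFD+WBM replicates 1 to 4. All HFD+WBM mice were below all HFD mice, HFD replicate 1 was not the highest, and the log2 fold change was -0.50 (standard error 0.17, 1.42-fold lower; p = 0.014 from limma, exact permutation p = 0.029).

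Atf6 was 10.59, 10.28, 10.36 and 10.37 in HFD replicates 1 to 4 and 10.10, 10.37, 10.16 and 10.03 in HFD+WBM replicates 1 to 4. Only HFD+WBM replicate 2 lay within the HFD range, and the log2 fold change was -0.24 (95% interval -0.56 to 0.09). Xbp1 was 11.84, 11.19, 11.53 and 11.15 in HFD replicates 1 to 4 and 11.43, 11.10, 11.17 and 11.19 in HFD+WBM replicates 1 to 4. These groups overlapped, at a log2 fold change of -0.20 (-0.62 to 0.21). The array value of Xbp1 is a total over its exons and does not separate the spliced form that carries the activity. Ern1, which encodes IRE1 alpha, had a log2 fold change of -0.25 (-0.79 to 0.30).

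The PERK and ATF4 arm lay on the other side of 0, with a median log2 fold change of 0.39, and 1 of its 5 genes passed. Ppp1r15a encodes GADD34, which directs a phosphatase to eIF2 alpha and so reverses the action of PERK. It was 6.95, 7.06, 7.00 and 6.90 in HFD replicates 1 to 4 and 7.46, 7.49, 7.42 and 7.60 in HFD+WBM replicates 1 to 4. The gap between the groups was wider than the range within either group, with a log2 fold change of 0.52 (standard error 0.13, 1.43-fold higher; p = 0.0028 from limma, the smallest of the 37 genes, and exact permutation p = 0.029). It remained past p under 0.05 without any single mouse, at 0.48 to 0.54. When limma let the prior variance depend on brightness, its p was 0.016 (adjusted p 0.26). It was then no longer the smallest of the 37 genes, as Manf had a limma p of 0.00012. The signal of Ppp1r15a was just below that of the median gene (mean 7.24 against 7.27).

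The other 4 genes did not pass. Ddit3, which encodes the transcription factor CHOP, was 5.27, 6.10, 5.71 and 6.29 in HFD replicates 1 to 4 and 6.34, 6.58, 6.11 and 5.89 in HFD+WBM replicates 1 to 4. Its signal was in the lower part of the array range (23.1% of genes had a lower or equal mean), the groups overlapped and the log2 fold change was 0.39 (95% interval -0.16 to 0.94), and 0.20 without HFD replicate 1. Chac1, a glutathione-degrading enzyme and sensitive ATF4 target, was 6.07, 6.99, 7.27 and 6.29 in HFD replicates 1 to 4 and 7.20, 7.43, 6.90 and 6.92 in HFD+WBM replicates 1 to 4. The HFD mice of Chac1 fell into a low and a high pair, and its log2 fold change of 0.45 (-0.16 to 1.07) did not pass with all mice and did at 0.66 without HFD replicate 3, while without HFD replicate 1 it was 0.26. Atf4 itself was 10.16, 9.99, 9.92 and 9.84 in HFD replicates 1 to 4 and 10.004, 10.14, 9.96 and 9.62 in HFD+WBM replicates 1 to 4. Its groups overlapped at a log2 fold change of -0.05 (-0.41 to 0.31), and ATF4 is set largely by translation, which arrays do not measure. Asns, asparagine synthetase, had one of 0.32 (-0.13 to 0.76), which passed at 0.47 without HFD+WBM replicate 2 and was 0.17 without HFD+WBM replicate 4.

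Some immediate early genes, which respond within minutes to handling and to signals, were higher too. Of 10 such genes, 3 were higher with HFD+WBM (Jun, Junb and Zfp36), against 4.85% of all genes, none was lower and 7 did not pass, of which Fosb had an estimate below 0 (-0.22). The groups overlapped for all 10. Their summed level was 12.33 to 12.62 (log2) in the HFD mice and 12.31 to 13.53 in the HFD+WBM mice. Dusp1 was the brightest in this sum (mean 11.42, log2 fold change 0.15) and did not pass. The mean of the 10 genes was 7.69 to 8.12 in the HFD mice and 8.03, 8.49, 8.12 and 9.06 in HFD+WBM replicates 1 to 4. HFD+WBM replicate 4 was the highest of all mice for Jun, Junb and Zfp36. The part of the immediate early genes in the change of Ppp1r15a was not tested.

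**Figure D3:**
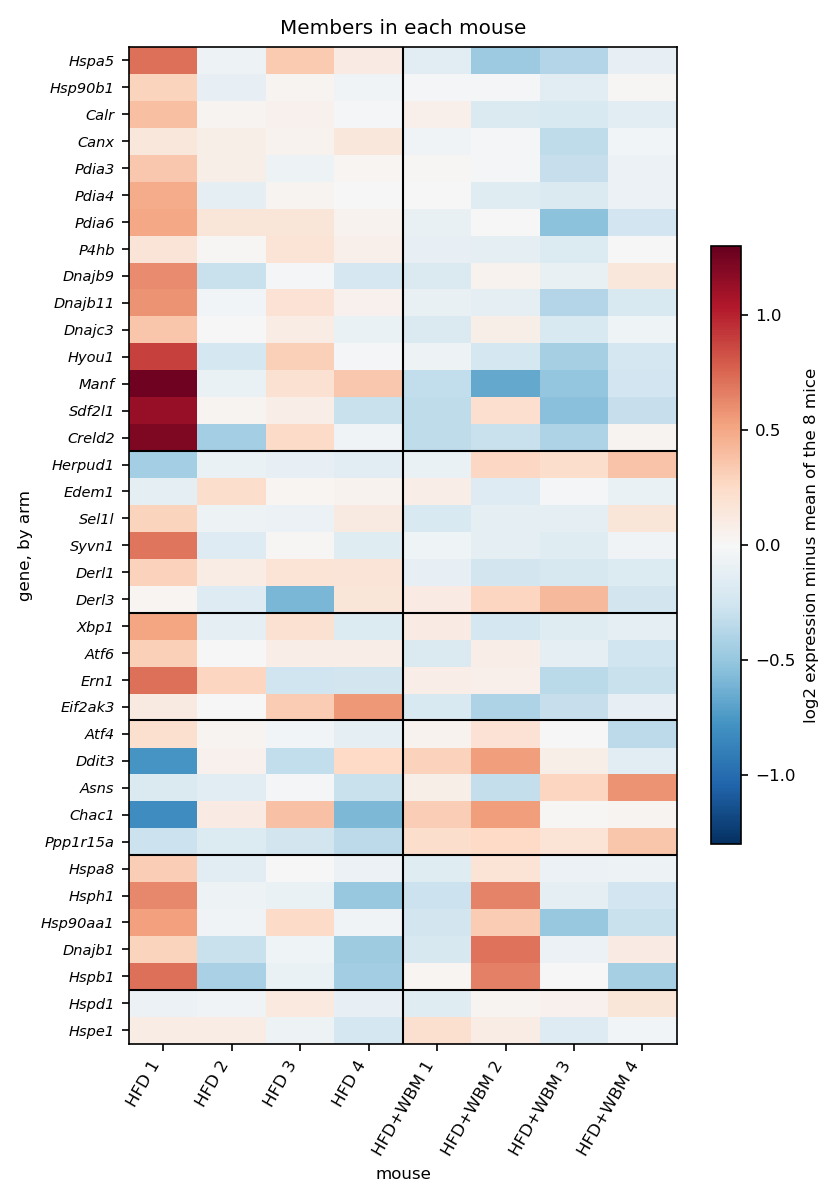
Log2 expression of each of the 37 genes in each mouse (columns, HFD left of the line and HFD+WBM right of it) minus the mean of the 8 mice, with lines between the arms. HFD replicate 1 is the highest HFD mouse in 13 of 15 ER lumen genes and in all 5 cytosolic heat shock genes, and HFD+WBM replicate 2 is the highest HFD+WBM mouse in the same 5 heat shock genes.

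Cytosolic heat shock proteins showed no difference between the diets that passed, and single mice set their pattern. Of the 5 measured, the median log2 fold change was 0.01, and leaving out HFD replicate 1 made it 0.22, and leaving out HFD+WBM replicate 2 made it -0.12. HFD replicate 1 was the highest HFD mouse and HFD+WBM replicate 2 the highest HFD+WBM mouse in all 5 (22.6% and 29.1% of all genes). The mean of the 5 genes was 10.28 in HFD replicate 1, where the rest of the HFD group had 9.48 to 9.79. It was 10.29 in HFD+WBM replicate 2, where the rest of that group had 9.60 to 9.64. In HFD+WBM replicate 2 the mean of the ER lumen genes (10.55) was within the range of the other HFD+WBM mice, so that this mouse stood apart in the cytosolic arm and not in the lumen.

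Hsp90aa1, the inducible cytosolic Hsp90, was 12.01, 11.43, 11.73 and 11.44 in HFD replicates 1 to 4 and 11.24, 11.81, 10.99 and 11.19 in HFD+WBM replicates 1 to 4. Only HFD+WBM replicate 2 was within the HFD range. The log2 fold change was -0.35 (95% interval -0.83 to 0.14), and it passed at -0.52 without that mouse. Without HFD replicate 1 it was -0.23. Its other 2 probe sets had a log2 fold change of -0.34 each. Dnajb1 (Hsp40) was 8.20, 7.63, 7.86 and 7.45 in HFD replicates 1 to 4 and 7.71, 8.62, 7.85 and 8.03 in HFD+WBM replicates 1 to 4. The groups overlapped over most of their ranges, at a log2 fold change of 0.27 (-0.27 to 0.80). The constitutive Hsp70 gene Hspa8 (-0.05), Hsph1 (Hsp105, 0.01) and the small heat shock protein gene Hspb1 (0.13) had log2 fold changes near 0. Hspa1a, taken from its own probe set and named here because Hspa1b could not be given, had a log2 fold change of 0.13 (-0.29 to 0.56).

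Hspd1 and Hspe1, which encode Hsp60 and Hsp10 of the mitochondrial chaperonin, did not pass. Hspd1 was 12.03, 12.06, 12.23 and 12.00 in HFD replicates 1 to 4 and 11.95, 12.15, 12.17 and 12.27 in HFD+WBM replicates 1 to 4. Hspe1 was 11.52, 11.53, 11.36 and 11.20 in HFD replicates 1 to 4 and 11.63, 11.52, 11.26 and 11.39 in HFD+WBM replicates 1 to 4. Both had a log2 fold change of 0.05, with 95% intervals of -0.26 to 0.36 and -0.29 to 0.39. The genes lie head to head and share their promoter, where a pair of overlapping heat shock elements (GAA, TTC and GAA with 2 bases between each, both strands) reads as follows with the fixed bases in capitals. The letters are in 0.662% of all genes and, of the other members with a window, in Hsph1 alone.
Hspd1 chr1:55088059-55088071: GAAggTTCtaGAA
Hspe1 chr1:55088064-55088076: GAAccTTCcgGAA

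Beyond the list, other genes that bring proteins into the ER and fold them there were also lower with HFD+WBM. These were 40 measured genes of translocation, glycosylation, folding and ER export outside the 39, listed with earlier results of these data known. Of the 40, 17 were lower, 1 was higher and 22 did not pass, against 6.9% of all genes lower. Estimates were below 0 for 38 of the 40 (median log2 fold change -0.30). The smallest p were those of Fkbp11, a prolyl isomerase of secretory cells (-0.77), Hspa13, a microsomal Hsp70 relative (-0.82), Fkbp14, a prolyl isomerase (-1.01), and Ssr1, a subunit of the translocon-associated complex (-0.44). The other 13 were the translocon subunits Sec61a1, Sec61b and Ssr2, the signal peptidase subunits Spcs2 and Spcs3, the oligosaccharyltransferase subunits Rpn1 and Ddost, the glucosyltransferase Uggt1 that returns misfolded glycoproteins to the lectin chaperones, the redox enzymes Ero1b and Dnajc10, Erp29, and the export factors Lman1 and Sec24d. The higher gene was Kdelr3, a receptor that returns ER proteins from the Golgi, with a low signal (mean 5.05 in HFD and 5.73 in HFD+WBM). Of the lower genes, Fkbp11 (mean 6.43) and Fkbp14 (mean 6.23) were also dimmer than the median gene (7.27). The groups did not overlap for 12 of these 17 and for 4 genes that did not pass (Ganab, Serp1, Dad1 and Stt3a). Such separation with HFD+WBM lower was seen in 5.02% of all genes and 7.58% of the 9969 brighter genes.

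The count of this ER list depended on single mice: leaving out HFD replicate 1 left 11 lower, and leaving out HFD+WBM replicate 3 left 10. Kdelr3 lost its call without HFD replicate 1 or 3 or HFD+WBM replicate 1 or 4. The ERSE letters were in 1 of the 32 of these genes with a promoter window (3.12%).

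**Figure D4:**
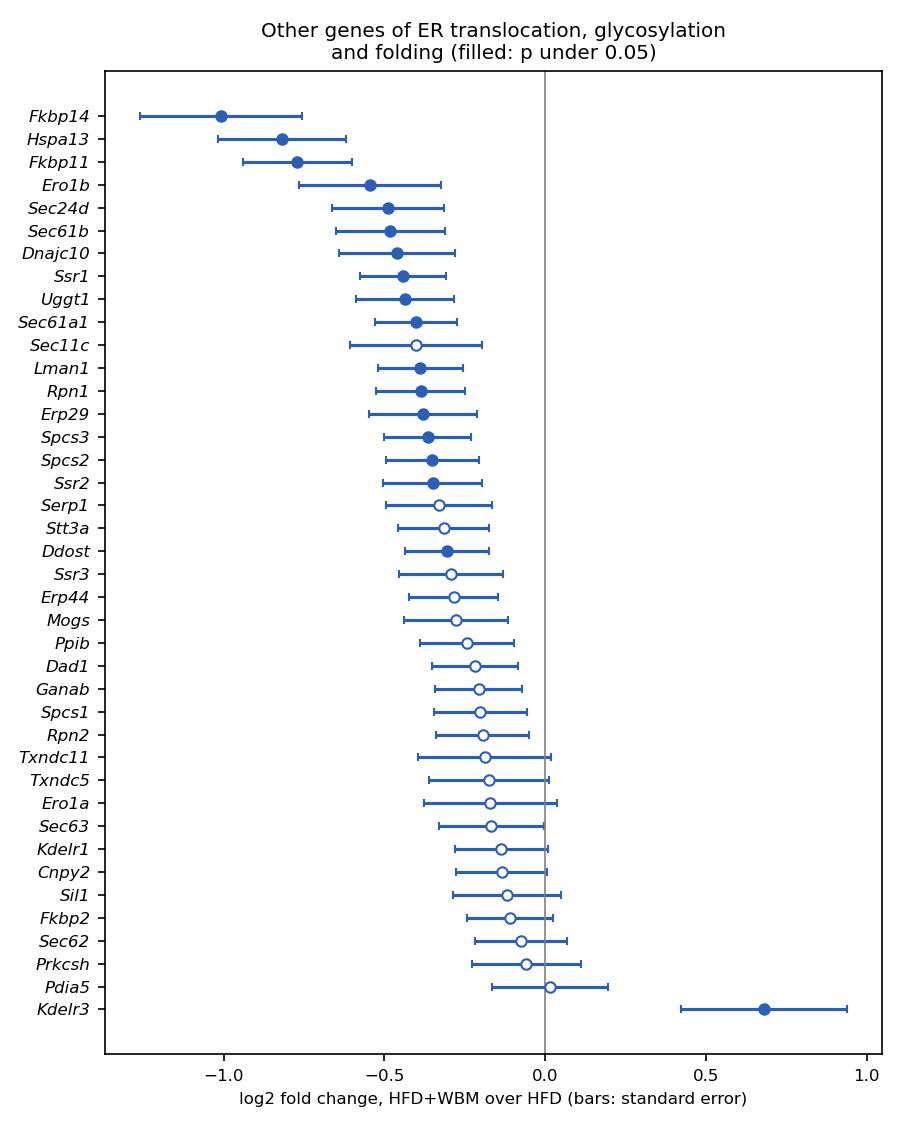
Log2 fold change, HFD+WBM over HFD, of the 40 measured ER genes outside the list of 39, with bars for the limma standard error (4 mice a diet). Filled points passed p under 0.05 without adjustment, 17 of them below 0 and Kdelr3 above it.

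The other lists of the same pathways are read against the 6.9% of all genes called lower and the 4.85% called higher. Of 20 further genes of ER-associated degradation 4 were lower and none higher, namely the ubiquitin-conjugating enzyme Ube2g2 (-0.49), Ubxn4 (-0.45), the derlin Derl2 (-0.50) and Ufd1 (-0.38), a cofactor of the p97 segregase. Of 13 further regulators of the response, Atf6b, the relative of Atf6, was lower at -0.66 (standard error 0.18; limma p before adjustment 0.0047). In the same list Bcl2l11, which encodes the pro-apoptotic BIM, was higher at 0.78 (standard error 0.17; limma p before adjustment 0.0011). In both genes the groups did not overlap.

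Of 32 further genes of ATF4 and the integrated stress response, 4 were higher and 4 lower, with a median log2 fold change of 0.17. Estimates were above 0 for 20 of them and below 0 for 12. The smallest p were those of Vldlr, a lipoprotein receptor (0.84), Phgdh, the first enzyme of serine synthesis (0.67), the tryptophanyl-tRNA synthetase gene Wars (-0.60) and Psph, the last enzyme of serine synthesis (0.47). The others were Sesn2, higher, and Atf5, Nars and Eif2ak2, lower. Phgdh (mean 5.03), Psph (6.88) and Sesn2 (6.95) were dimmer than the median gene (7.27). The tRNA synthetase genes Cars, Gars, Sars and Mars1 did not pass, and their estimates were below 0 like those of Wars and Nars. The median of this list was 0.054 without HFD replicate 3, and its lower genes numbered 1 without HFD replicate 4 and 2 without HFD replicate 1 or 3 or HFD+WBM replicate 2 or 3. A list of 38 further heat shock and co-chaperone genes was mostly cytosolic, and its ER gene Serpinh1 did not pass. Of the 38, Hspa14 (-0.45), Hspa4 (-0.37), Cct3 (-0.39) and Hspa1l were lower and Dnajb6 (0.50) was higher. Leaving out HFD replicate 1 made this 2 lower and 3 higher, and leaving out HFD+WBM replicate 4 also left 2 lower. Hspa1l (mean 5.79) and Dnajb6 (6.82) were dimmer than the median gene (7.27). None of 12 further mitochondrial chaperones and proteases passed.

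Markers of Kupffer cells and macrophages were lower alongside the ER genes. Of these 14 markers, also listed with earlier results known, 12 were lower, against 6.9% of all genes and 8.29% of the 9969 brighter genes. All 14 estimates were below 0 (median -0.69). Their summed level was 13.47 to 13.99 (log2) in the HFD mice and 12.91 to 13.41 in the HFD+WBM mice. Of 9 markers of stellate cells and matrix 4 were lower and 8 estimates were below 0 (median -0.46). The sums of these 9 were 12.43 to 13.03 with HFD and 12.19 to 12.64 with HFD+WBM. Dcn was the brightest of them (mean 11.65, log2 fold change -0.15). Of 8 markers of sinusoidal endothelial cells 1 was lower (Lyve1), and all 8 estimates were below 0 (median -0.27). None of 9 hepatocyte markers passed, and their summed level was 16.56 to 16.68 with HFD and 16.57 to 16.68 with HFD+WBM.

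Plasma cells are rich in ER chaperones. Of 9 markers of plasma and B cells 1 was higher (Jchain), against 4.85% of all genes, and 7 estimates were above 0 (median 0.20). Jchain had a low signal (mean 4.71) and overlapping groups (exact permutation p = 0.14). It was 7.87 in HFD+WBM replicate 1, against 3.87 to 5.98 in the rest of that group. The summed level of the 9 markers was 11.21 to 11.44 with HFD and 10.82 to 11.62 with HFD+WBM. This sum was mostly Sdc1 (mean 10.92, log2 fold change -0.32), and the other 8 markers were dimmer than the median gene. Of 10 markers of pancreatic acinar cells, all dimmer than the median gene, 1 was higher (Clps), and all 10 estimates were above 0 (median 0.29). None of 7 markers of T and NK cells and none of 5 of cholangiocytes passed. The part of these cell types in the lower level of the ER genes was not tested.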

How the data were processed

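Liver RNA of 8 OVX mice was hybridized to Affymetrix Mouse Gene 1.0 ST arrays. The authors used the IterPLIER algorithm, which covers background, normalization and the summary of probes, and deposited log2 values. The submitters' processing notes name Affymetrix Power Tools, release 1.8.6. No source read here states an offset added before logs were taken. Of 28944 probe sets, 21789 named 1 gene, 1621 several and 5534 none, and the brightest probe set stood for each of 19938 genes. Groups came from the sample labels.

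The diets were compared with limma (3.58.1, R 4.3.3; lmFit and eBayes, diet alone) over all genes, with Benjamini-Hochberg adjustment. A call is p under 0.05 before adjustment, the study's own p threshold without its 2-fold limit. Exact permutation tests used all 70 divisions of the mice. The number of arrays limits the precision. The script was tested on simulated data. Promoter windows were those of RefSeq, GRCm38.p6, found for 32 of the 39 genes.

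Values per mouse are given for genes with p under 0.05 or separate groups, the 2 smallest p of each arm and Hspa5, Xbp1, Atf4 and Ddit3, and some others chosen after their values were seen. Of wider lists, up to 4 genes with the smallest p are given with values, and others are named to complete a count or a class of genes. The members and lists were chosen with earlier results of these data known. Alternatives were other normalizations, offsets of 16 and 64, dim genes left out, the mean of all probe sets, another prior variance, array weights, a gene-by-gene t-test with equal variances, which the study does not name for the arrays, a 1.5-fold limit, the replicate number as a block and each mouse left out.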

Additional observations from a re-analysis of the deposited data

Results flagged for a closer look

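In 6 of 86 groups of 4 values checked, 1 mouse stood far from the rest; chance alone flags about 1 in 20 groups. Calr was 11.96 (log2) in HFD replicate 1, against 11.55 to 11.62 for the other mice on that diet. Canx was 11.54 in HFD+WBM replicate 3, against 11.83 to 11.86 for the others. The mean of the ER lumen genes was 10.35 in HFD+WBM replicate 3, against 10.55 to 10.57 for the others. The mean of the sensors and Xbp1 was 10.09 in HFD replicate 1, against 9.71 to 9.76 for the others. The mean of the cytosolic heat shock genes was 10.29 in HFD+WBM replicate 2, against 9.60 to 9.64 for the others. The mean of Hspd1 and Hspe1 was 11.60 in HFD replicate 4, against 11.78 to 11.80 for the others.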

How the results depend on the processing

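Over single members, 611 values under alternatives kept their direction and side of the threshold, 20 lost a call, 16 gained one and 15 changed sign, none of them a call. Leaving out 1 mouse, Atf4 ran from -0.12 to 0.056, Dnajb9 from -0.15 to 0.15 (0.032 with array weights), Hspa8 from -0.12 to 0.044, Hspb1 from -0.070 to 0.39, Hspe1 from -0.017 to 0.11, Hsph1 from -0.21 to 0.22 and Syvn1 from -0.28 to 0.0057. With the brightness-dependent prior variance 10 members were lower. At 1.5-fold 1 was lower (Manf) and 0 higher, since the others changed less. Among the brighter 50% of genes 1 was higher, since Ppp1r15a is not among them. Leaving out 1 mouse gave 4 to 8 lower and 1 to 3 higher members, medians of -0.14 to -0.026 for ER-associated degradation and 0.26 to 0.48 for the PERK and ATF4 arm (0.13 among the brighter 50%, where fewer of its genes remain), and 10 to 16 lower genes in the other ER list. Over all genes, adjusted p under 0.05 called 0, but 2 with an offset of 16, 80 with 64, 19 among the brighter 50%, 139 with the brightness-dependent prior and 0 to 1 without a mouse. The count at p under 0.05 and 2-fold was 152, and 65, 32, 43 and 98 with offsets of 16 and 64, among the brighter 50% and by the t-test with equal variances, and 154 to 235 without a mouse.

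Same-numbered mice did not deviate together (correlations -0.12 to -0.02, where mice of unlike number had -0.20 to 0.19). No pairing by number was seen, but such correlations cannot exclude a shared cage or order of processing. With the replicate block 4 members were lower (without Derl1 and Dnajb11), 2 were higher and 8 genes of the other ER list were lower. With 4 arrays a diet, small changes could go undetected.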
